A study of Mus musculus with 9 samples.

Results

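Cytosolic ribosomal protein genes encode the proteins that, with the ribosomal RNAs, make up the large and small subunits of the ribosomes in the cytoplasm. They were taken here by symbol, as protein-coding genes named Rpl or Rps with a number and, where present, a letter or l or l1 ending, together with Rplp0, Rplp1, Rplp2 and Rpsa. Of 82 genes that match this rule, 80 reached a level of 1 CPM (the count scaled to the size of the library) in at least 1 sample, 48 of the large and 32 of the small subunit, among 15069 genes that did so. The remaining 2, Rpl39l and Rpl10l, had 17 and 0 counts over all 9 samples. The data are counts of ribosome-bound RNA from CA2/CA3 of PV-Cre; Rpl22HA/HA mice, in which Cre expressed from the parvalbumin locus switches on a hemagglutinin (HA) tag on the large subunit protein Rpl22, so that anti-HA beads pull down ribosomes of parvalbumin inhibitory neurons (PV INs). All mice carried both alleles and were 2 months old when a lentivirus was injected into the dentate gyrus (DG), and tissue was taken 2 weeks later. The control group, shNT, received a non-target shRNA and has 5 samples, and the other group, shRNA, received an shRNA against Ablim3, a brake on mossy fiber contacts with PV INs, and has 4 samples. Each sample pooled tissue of 6 mice of both sexes, so a sample is a pool and not an animal, and the comparison asks how the RNA on PV IN ribosomes differs after mossy fiber input is raised.

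Every cytosolic ribosome carries about 1 copy of most of these proteins, and their genes are known for being transcribed and translated together. Their mRNAs start with a C and a run of pyrimidines, the 5′ terminal oligopyrimidine (TOP) motif, through which the kinase mTORC1 and the protein Larp1 set how many of them are on ribosomes. In neurons these mRNAs are found in axons and dendrites as well as in the cell body. The genes have left many processed pseudogenes across the genome, which share their sequence. Rpl22 has a place of its own in this experiment, since its protein carries the tag used for the pulldown.

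Samples held between 18281719 and 34578837 counts assigned to genes, so counting error was small beside the spread between samples for all but the rarest members. Levels are given as CPM after TMM scaling between the libraries. In bulk RNA of this kind, fewer cells of a type and less RNA per cell cannot be told apart. The share of uniquely aligned reads outside exons ran from 9.76 to 18.6% in shNT and from 12.4 to 27.2% in shRNA samples. shRNA replicate 4 stood apart, with the highest such share and with astrocyte markers summing to 7283 CPM against 1420 to 1944 CPM in shNT. Library names fall into a YTa31 set (shNT 1 to 3, shRNA 1 to 3) and a YTa32 set (shNT 4 and 5, shRNA 4). The sources do not say whether these sets were prepared apart, so the median of the members and the values of the main genes are also given within the YTa31 set.

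The 80 members together took little of each library and less of it in shRNA than in shNT samples. Their share of gene counts was 0.359, 0.568, 0.382, 0.451 and 0.528% in shNT samples 1 to 5. It was 0.394, 0.326, 0.342 and 0.243% in shRNA samples 1 to 4. The mean was 0.458% ± 0.0905 (SD, n = 5) in shNT and 0.326% ± 0.0630 (SD, n = 4) in shRNA. The groups overlapped, since shNT 1 and shNT 3 lay below shRNA 1. Counts for large subunit members exceeded those for small subunit members 1.62 to 1.73 times in shNT and 1.72 to 1.84 times in shRNA samples.

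The members varied together across the samples. Over the 9 samples the median correlation of a member's log2 level with the mean of the other members was 0.98, and 72 of 80 members were above 0.9. These correlations are descriptions, and all points share the libraries and their normalization. shNT 5 was the highest sample for 66 members and shRNA 4 the lowest for 78. Set against the shNT mean of each gene, the median member stood at −0.34, 0.21, −0.23, 0.04 and 0.34 log2 units in shNT samples 1 to 5. It stood at −0.22, −0.46, −0.37 and −1.26 in shRNA samples 1 to 4. shRNA 1 to 3 therefore lay in or just under the lower part of the shNT range, and shRNA 4 lay far below it. shRNA 4 was under every shNT sample for 79 members, shRNA 2 for 64, shRNA 3 for 38 and shRNA 1 for 10. Like counts over all genes were not taken, so these counts do not show a trait particular to the members. On the same scale the mean of all genes tested stood at 0.20, 0.08, 0.13 and 0.30 in shRNA samples 1 to 4. The mean of mitochondrial ribosomal protein genes stood at −0.97 in shRNA 4.

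**Figure D1:**
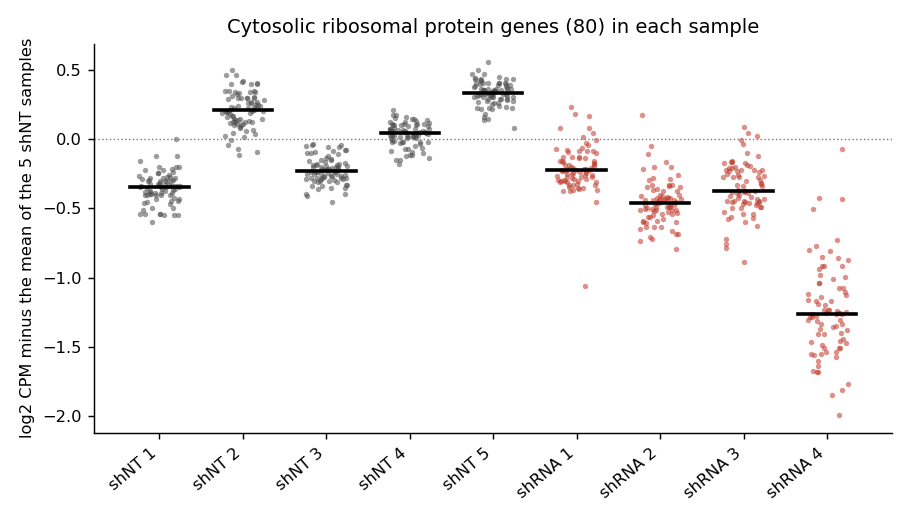
Log2 CPM of each of the 80 members minus its mean over the 5 shNT samples, in every sample. Points are genes, black lines are medians, grey is shNT and red is shRNA. The median is −1.26 in shRNA 4 and between −0.46 and 0.34 in every other sample.

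Of the 80 members 79 had a negative log2 fold change (shRNA over shNT), against 42.1% of all 15069 genes tested. Rpl3l, among the 79, passed the filter only through shNT samples, so its sign was favored by the filter. Their median was −0.55, with a middle range from −0.63 to −0.46, and the median over all genes was 0.11, so the medians were 0.67 log2 units apart. No member passed the thresholds of a false discovery rate (FDR) under 0.05 and a 1.5-fold change in edgeR's quasi-likelihood test, where 0.0133% of all genes were called lower. At an unadjusted p under 0.05, 50 members were lower and none higher, and the share of all genes lower at that level was 13.4%. The adjusted p lay between 0.05 and 0.1 for 29 members, against 8.57% of all genes that were lower in that range, and the smallest over members was 0.072. Every shRNA sample was below every shNT sample for 6 members, or 7.5%, near the 6.68% of all genes. Other tests called more members lower, 27 with DESeq2, 14 each with edgeR's likelihood ratio and exact tests and 5 with limma voom. The shares of all genes called lower by these tests were 5.6%, 3.6%, 3.54% and 4.1%, so the 5 of 80 members with limma voom were near its share. Without shNT 1, edgeR's quasi-likelihood test called 4 members and 2.72% of all genes lower. In the YTa31 set alone the median was −0.27, 78 members were negative, 1 had an unadjusted p under 0.05 and the smallest edgeR adjusted p over members was 0.485. Of the 79 negative values, 73 were more than 1.5 times smaller there, and 25 were so without shRNA 4, where the median was −0.39 and 79 members were negative. Large and small subunit members had like medians, −0.54 over 48 and −0.56 over 32 genes.

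**Figure D2:**
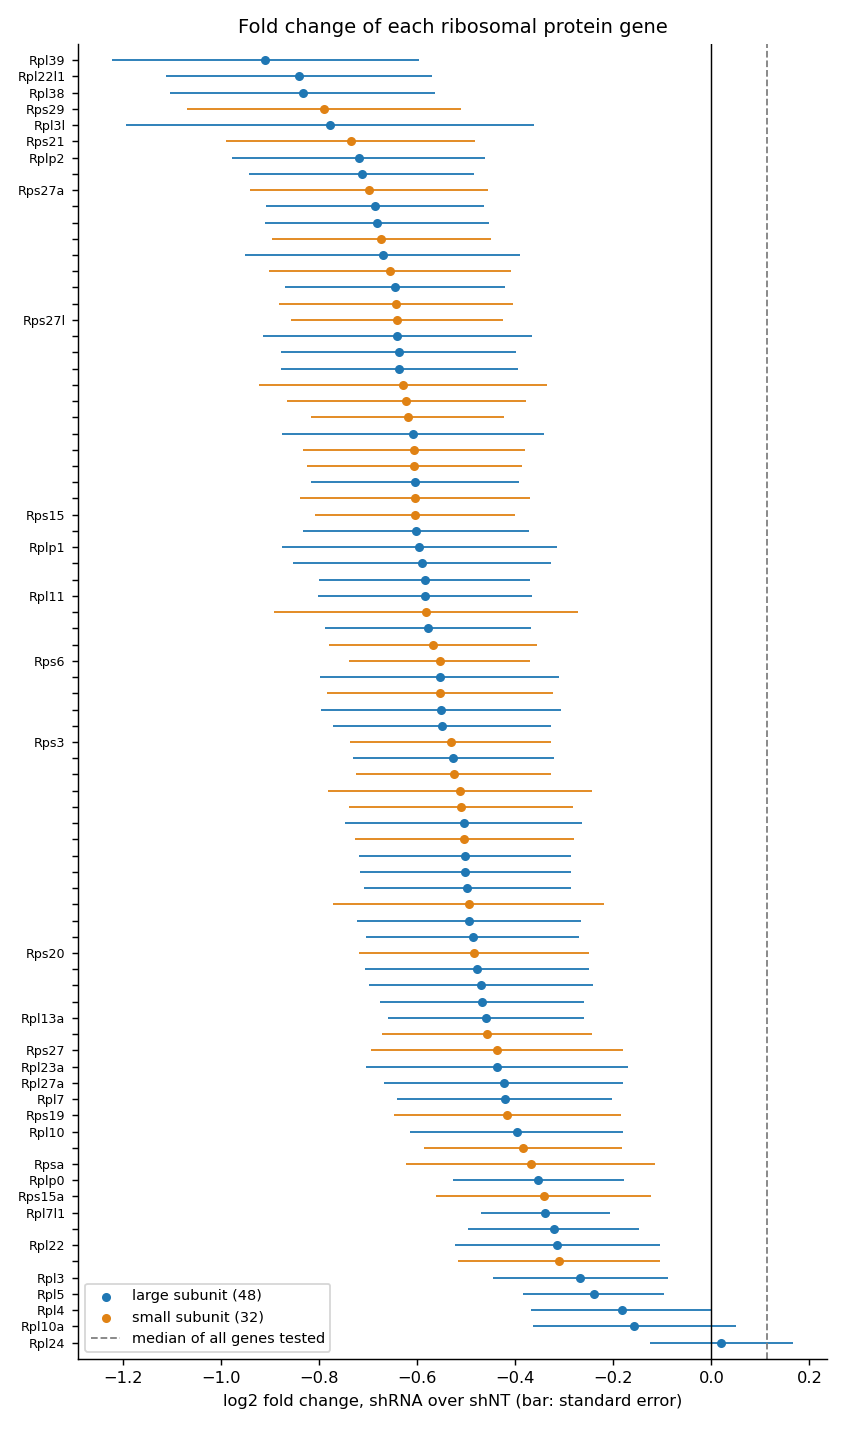
Log2 fold change of each member (shRNA over shNT, edgeR) with its standard error, sorted from Rpl39 to Rpl24, with names beside the members described in the text. Blue marks large and orange small subunit members, and the dashed line is the median of all genes tested, 0.11. 79 of 80 points lie below 0.

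The lowest fold changes among members averaging at least 10 CPM belonged to small proteins. Rpl39, a short protein that lines the exit tunnel of the large subunit, was at 12.9, 23.8, 14.9, 20.3 and 25.5 CPM in shNT and at 14.9, 10.8, 10.9 and 4.69 CPM in shRNA samples. Only shRNA 1 reached into the shNT range. Its log2 fold change was −0.91 (SE 0.31, edgeR adjusted p = 0.082), and −0.53 in the YTa31 set alone. Rpl38, a large subunit protein known for its part in translating Hox mRNAs in the embryo, averaged 57.1 CPM ± 17.1 (SD, n = 5) in shNT and 32 CPM ± 9.97 (SD, n = 4) in shRNA. Its log2 fold change was −0.83 (SE 0.27, edgeR adjusted p = 0.074), and −0.48 in the YTa31 set alone. Its shNT values split into 37.8 and 40.1 CPM in shNT 1 and 3 and 63.7 to 74.3 CPM in the other shNT samples, with shRNA 1 at 43.1 CPM and shRNA 2 to 4 between 18.9 and 33.6 CPM. Rps29 and Rps21, of the small subunit, had log2 fold changes of −0.79 and −0.74 with edgeR adjusted p of 0.087 and 0.083. Rps29 averaged 51.6 CPM in shNT and 29.8 CPM in shRNA, and Rps21 averaged 50.7 and 30.4 CPM. Their values in the YTa31 set alone were −0.40 and −0.45.

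The fold changes nearest 0 belonged to 5 large subunit members. Rpl24, which helps bridge the subunits, was at 83.7 to 98.5 CPM in shNT. In shRNA samples it was at 102, 101, 94.9 and 66.2 CPM, so 2 samples were above every shNT sample and 1 below all of them. Its log2 fold change of 0.02 (SE 0.15) was the only positive value among the members. Rpl4, whose long loop reaches into the exit tunnel, had the highest CPM of all members, 226 to 286 in shNT and 259, 228, 239 and 141 in shRNA samples 1 to 4, and a log2 fold change of −0.18 (SE 0.18). Apart from shRNA 4, the Rpl4 groups covered the same range. Rpl10a, of the mobile stalk beside the exit site for tRNA, was at −0.16, Rpl5 at −0.24 and Rpl3, which lies close to the catalytic center, at −0.27. Without shRNA 4 Rpl4 was at −0.05 and Rpl3 at −0.13, and without shNT 2 Rpl10a was at −0.01. In the YTa31 set alone Rpl24 was at 0.16, Rpl4 at 0.02, Rpl10a at −0.19, Rpl5 at −0.11 and Rpl3 at −0.08. Rpl10a and Rpl24 also followed the other members least among those above 10 CPM, with correlations of 0.46 and 0.61 with the mean of the other members.

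**Figure D3:**
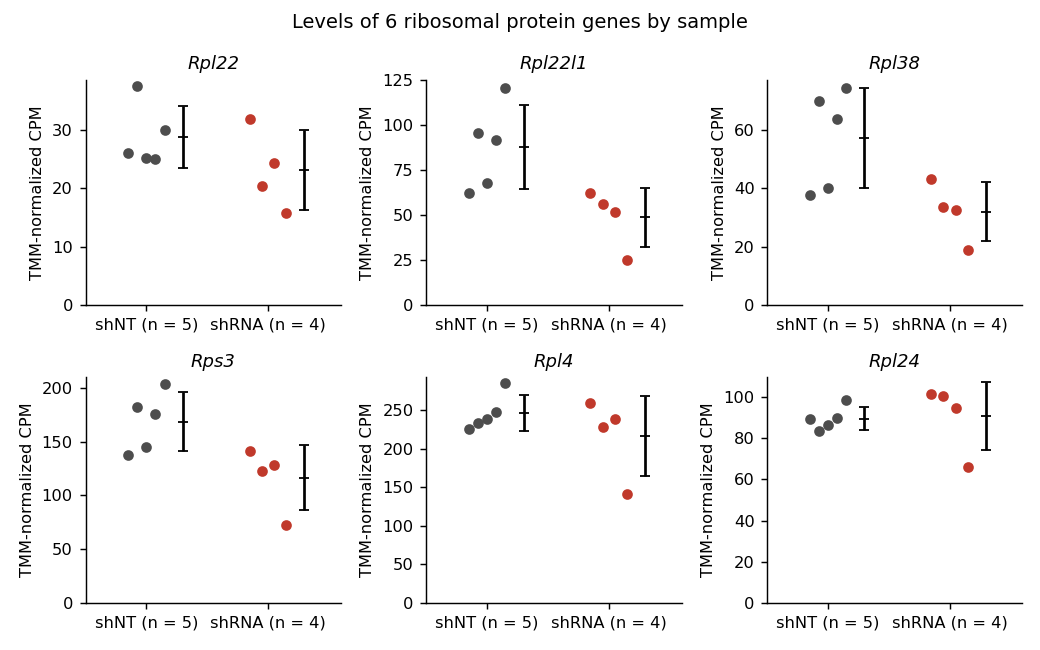
TMM-normalized CPM of Rpl22, Rpl22l1, Rpl38, Rps3, Rpl4 and Rpl24 in each shNT (grey) and shRNA (red) sample, with the mean and SD of each group beside the points. The groups are apart for Rpl22l1 only, by a margin of under 1 CPM, and the lowest red point in every panel is shRNA 4.

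Rpl22, the gene of the tagged protein, was at 26.1, 37.5, 25.2, 25.1 and 30 CPM in shNT samples 1 to 5. It was at 31.9, 20.5, 24.4 and 15.8 CPM in shRNA samples 1 to 4, inside the shNT range for shRNA 1 and below it for the others. The mean was 28.8 CPM ± 5.28 (SD, n = 5) in shNT and 23.1 CPM ± 6.82 (SD, n = 4) in shRNA. The log2 fold change of −0.31 (SE 0.21) did not pass the test (edgeR adjusted p = 0.29), nor did the difference in log2 CPM of −0.34 in an exact two-sided permutation test (p = 0.19). The log2 fold change was −0.20 without shRNA 4 or without shNT 2, −0.51 without shRNA 1 and −0.25 in the YTa31 set alone. The counts do not separate tagged from untagged Rpl22 mRNA, and they measure Rpl22 mRNA on the ribosomes and not the amount of tagged protein.

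Rpl22l1, the paralog of Rpl22 that can take its place in the ribosome, was at 62.4, 95.6, 67.8, 91.9 and 120 CPM in shNT samples. It was at 62.2, 56.5, 51.8 and 25 CPM in shRNA samples, so the groups did not overlap, with shNT 1 just above shRNA 1. Its log2 fold change was −0.84 (SE 0.27, edgeR adjusted p = 0.073), second only to Rpl39 among the members, and it was −0.44 in the YTa31 set alone. Per kb of exon, Rpl22l1 was at 179 CPM ± 47.8 (SD, n = 5) and Rpl22 at 9.88 CPM ± 1.81 (SD, n = 5) in shNT, and at 99.9 and 7.94 CPM in shRNA. The size of this gap depends on the length used, since the merged exons of Rpl22 span 2911 bases and its principal transcript 474, against 489 bases on both measures for Rpl22l1. In shNT the gap was 3.05-fold in CPM without a length, and the 2 principal transcripts are of like length. It was 18.1-fold per kb of exon and 6.03-fold per 50-base window of the principal transcript found at 1 place in the genome. The last value divides counts over all exons by windows of the principal transcript alone. The ratio of the Rpl22 count to the Rpl22l1 count was 0.418, 0.392, 0.371, 0.273 and 0.249 in shNT samples. It was 0.513, 0.362, 0.471 and 0.631 in shRNA samples, above every shNT sample but for shRNA 2. The log2 ratio was higher by 0.54 in shRNA, which did not pass an exact two-sided permutation test (p = 0.063, where the smallest p the design allows is 0.0079). Without shRNA 2 the difference was 0.68 (exact permutation p = 0.036), and in the YTa31 set alone it was 0.17 (exact permutation p = 0.4). The YTa31 set has too few samples for this test to reach a p under 0.05 at any difference, so that p decides nothing.

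The other members with a paralog in the list did not all resemble it in level. Rpl3l, the form of Rpl3 known from heart and skeletal muscle, was near the detection limit at 0.365 to 1.28 CPM over the 9 samples, and Rpl3 was at 41.5 to 88.5 CPM. Only shNT 2 and shNT 5 were above 1 CPM for Rpl3l, and its highest shRNA value was 0.817 CPM. It was thus kept only through the group where it is high, which favors a negative fold change. Per kb of exon the level was 0.452 CPM for Rpl3l and 53.3 CPM for Rpl3 as means of 9 samples. Rpl7l1, a relative of Rpl7 that acts in building the large subunit, averaged 86.6 CPM ± 11.2 (SD, n = 5) in shNT and 68.5 CPM ± 4.75 (SD, n = 4) in shRNA, with a log2 fold change of −0.34 (SE 0.13, edgeR adjusted p = 0.103). Its correlation with the mean of the other members was 0.76. Rpl7 had a log2 fold change of −0.42, and of −0.24 without shRNA 4. Rps27l, a paralog of Rps27 known as a p53 target, was at 12 to 22.9 CPM in shNT and 9.69 to 12.8 CPM in shRNA with a log2 fold change of −0.64. Rps27 was at −0.44, and at −0.27 without shRNA 4.

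The acidic stalk of the large subunit recruits the elongation factors. Of its proteins, Rplp0 had a log2 fold change of −0.35, Rplp1 of −0.60 and Rplp2 of −0.72, with edgeR adjusted p of 0.174, 0.157 and 0.089. Rplp2 was at 63.2 to 122 CPM in shNT and at 30.5 to 70.3 CPM in shRNA, with shRNA 1 and 3 inside the shNT range. Rpsa, a small subunit protein also known as a laminin receptor, was at −0.37 (SE 0.25), and its shRNA 3 value of 64.1 CPM exceeded those of 3 shNT samples. Without shRNA 4 Rplp0 was at −0.22, Rplp1 at −0.39 and Rpsa at −0.17, and in the YTa31 set alone Rpsa was at −0.01.

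Members with known regulatory roles had values inside the range of the rest. Rps6, the substrate of the S6 kinases under mTORC1, averaged 66.1 CPM ± 12.9 (SD, n = 5) in shNT and 45.0 CPM ± 8.91 (SD, n = 4) in shRNA. Its log2 fold change was −0.55 (SE 0.18, edgeR adjusted p = 0.078). Rpl5 and Rpl11, which bind the ubiquitin ligase Mdm2 together with the small ribosomal RNA of the large subunit, were at −0.24 and −0.58. Rps27a, made as a fusion with ubiquitin, was at −0.70 (SE 0.24, edgeR adjusted p = 0.083), and its lowest shNT value of 44.6 CPM was just above its highest shRNA value of 44.2 CPM. Rps3, at the entry of the mRNA channel, was at 137 to 203 CPM in shNT and 72.7 to 142 CPM in shRNA, and Rps19, mutated in Diamond-Blackfan anemia, at 25.8 to 42.7 CPM in shNT and 15 to 33 CPM in shRNA. Their log2 fold changes were −0.53 and −0.42, and Rps19 was at −0.26 without shRNA 4. Rpl10, which joins the large subunit late in its assembly, was at −0.40, or −0.25 without shRNA 4, and Rpl13a, often used as a reference gene, at −0.46.

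Fold changes followed the length of the coding sequence, among the members and among all genes. Over the 80 members, log2 fold change and log2 coding length had a Pearson correlation of 0.54 and a Spearman correlation of 0.55. Over all 13993 protein-coding genes with a coding length, the Pearson value was 0.49. Genes within a library are not independent, and these values are descriptions. Members of at most 300 coding bases had a median of −0.67 (9 genes), those over 300 and up to 450 bases −0.61 (28 genes), those up to 600 bases −0.53 (19 genes), those up to 900 bases −0.47 (20 genes) and those up to 1500 bases −0.31 (4 genes). The medians of other protein-coding genes in the same length classes were −0.45, −0.43, −0.34, −0.22 and −0.04, over 308, 705, 835, 1867 and 3870 genes. Each class of members was thus lower than other genes of like length by between 0.17 and 0.27 log2 units. Mitochondrial ribosomal protein genes, with a median coding length of 577.5 bases, had a median of −0.55. That is also below the −0.34 of other genes over 450 and up to 600 bases, so such a gap is not particular to the members. With a trend on exon length taken out across all genes, the median of the members was −0.33 and that of all genes −0.0017, and 77 of the 79 negative members stayed negative. Of the 4 members over 900 coding bases, Rpl3l was at −0.78 and Rpl3, Rpl4 and Rplp0 lay between −0.35 and −0.18. Rpl3l passed the filter only through shNT samples, so its negative value was favored by the filter and says nothing about length. The median of −0.31 for this class includes it.

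**Figure D4:**
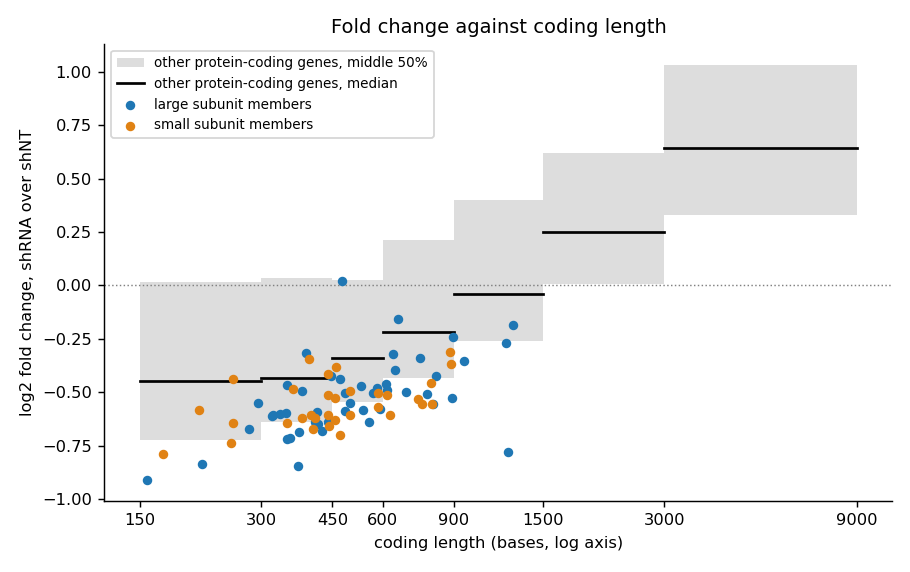
Log2 fold change (shRNA over shNT) against coding length in bases on a log axis. Points are the 80 members (blue large, orange small subunit), black lines and grey boxes the median and middle 50% of other protein-coding genes in 7 length classes, of which the outermost are open-ended. Members run from −0.91 (Rpl39, 156 bases) to 0.02 (Rpl24, 474 bases). The longest, Rpl4 with 1260 bases, is at −0.18, and Rpl3l with 1224 bases, kept only through shNT samples, is at −0.78. The medians of other genes run from −0.45 to 0.64.

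Shared sequence limited how many reads of the members could be counted. Only reads that aligned at 1 place were counted, and the reads were 50 bases long. Of the 50-base windows in a member's principal coding transcript, a median of 61.0% occurred again, letter for letter, elsewhere in the mm9 genome, and 45 of 80 members had at least 50% of such windows. The median over all protein-coding genes tested was 0%, and 2.98% of them reached 50%. The range ran from 0% for Rpl3l to 99.6% for Rps27. Levels of the members are therefore lower limits where shared windows are many, and the low share of all counts given above has the same limit. Fold changes did not track shared sequence, with a Pearson correlation of 0.01 over the 80 members. The 6 members with under 10% of such windows had a median log2 fold change of −0.51. Among them, Rps15a and Rps20 were matched on transcripts of 3721 and 3706 bases with 393 and 360 coding bases. Most of their windows thus lie outside the coding sequence, and Rpl3l, also among the 6, was near the detection limit. The share of alignments at more than 1 place ran from 11.1 to 14.4% in shNT and from 8.24 to 10.8% in shRNA, and its part in the members' levels was not tested. Pseudogenes named after the members took few counts, since 8 of 163 reached 1 CPM and together these gave 10.3 to 17.0 CPM in shNT and 6.13 to 12.1 CPM in shRNA. Exons of 6 members overlapped another gene over at least 20% of their length, among them Rpl13a, Rpl5 and Rpl23a, and counting without strand leaves such reads ambiguous.

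Levels per length spread widely although the proteins are made in near equal numbers. Among the highest were Rplp1 at 184 CPM per kb of exon, Rpl4 at 164, Rpl22l1 at 144 and Rps15 at 111, as means of 9 samples. The lowest were Rpl3l at 0.452, Rps15a at 4.56, Rpl23a at 5.54, Rpl27a at 6.18 and Rps20 at 6.43 CPM per kb. Among these, Rpl23a shares 95.4% of its windows with other places, while the merged exons of Rps15a span 6262 bases for 393 coding bases. The median member, at 29.3 CPM per kb, lay at the 85.0th percentile of all genes tested, and mitochondrial ribosomal protein genes had a like median of 30.3. Over members, level per kb and shared windows had a Pearson correlation of 0.14.

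**Figure D5:**
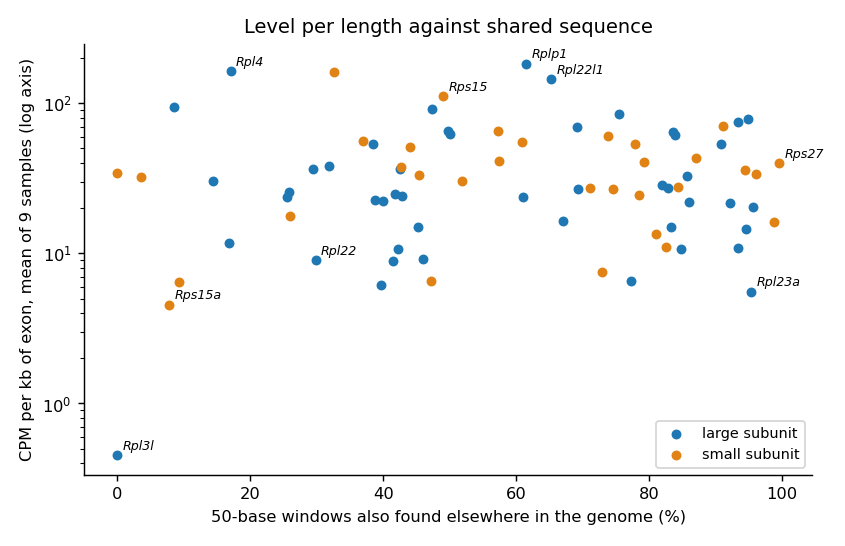
CPM per kb of exon (mean of 9 samples, log axis) against the percentage of 50-base windows found again elsewhere in the genome. Each point is a member, blue for the large and orange for the small subunit. Rpl4 with 17.1% and Rplp1 with 61.5% of such windows are both among the highest points.

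Promoters of the members share sequence that the selection by symbol did not use. RefSeq windows of 250 bases before to 50 after the annotated start (GRCm38.p6) were found for 59 of 80 members. The letters CGGAAG, the core of the sites of Ets family factors such as Gabpa, stood on either strand in windows of 66.1% of these members and of 18.8% of all 27025 genes. These 27025 are all genes with a RefSeq window and, unlike the members, were not limited to genes detected in these samples. The longer CCGGAAGT, which contains these letters, stood in 18.6% against 4.31%. AAGATGGC, the core of the Yy1 site, stood in 10.2% against 3.19%, and TATAAA in 11.9% against 15.7%. A C at the annotated start followed by at least 4 bases of C or T, the TOP pattern, was present for 22.0% of members and 3.01% of all genes. CTTCC on the sense strand within 10 bases of the start, or in its place CTTTCC or the like CTTTTC, was present for 35.6% against 8.65%. CTTTCC on either strand anywhere in the window stood in 50.8% against 29.3%, CTTTTC in 28.8% against 24.3%, CTTCC in 91.5% against 73.8% and TTTCCT in 37.3% against 32.1%. These letters overlap one another in pyrimidine runs, annotated starts may lie some bases from those in use, and a match is a description and not a site. Members with and without CGGAAG had median log2 fold changes of −0.58 and −0.49 (39 and 20 genes), and those with and without the TOP pattern −0.55 and −0.55 (13 and 46 genes).

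Windows of 4 members are shown, Rpl39 and Rpl38 from the 5 lowest fold changes and Rpl4 and Rpl24 from the 5 highest. They run 5′ to 3′ from 90 bases before to 30 after the annotated start, with CGGAAG or its reverse complement CTTCCG in capitals. Rpl39 is on the minus strand of chromosome X (chrX:37085193-37085312), Rpl38 on the plus strand of chromosome 11 (chr11:114668490-114668609), Rpl4 on the plus strand of chromosome 9 (chr9:64173297-64173416) and Rpl24 on the plus strand of chromosome 16 (chr16:55966185-55966304).
Rpl39: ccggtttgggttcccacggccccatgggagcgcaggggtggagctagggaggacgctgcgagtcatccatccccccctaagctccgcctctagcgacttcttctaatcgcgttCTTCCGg
Rpl38: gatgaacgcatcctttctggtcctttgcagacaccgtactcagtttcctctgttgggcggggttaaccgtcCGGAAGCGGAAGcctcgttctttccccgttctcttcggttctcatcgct
Rpl4: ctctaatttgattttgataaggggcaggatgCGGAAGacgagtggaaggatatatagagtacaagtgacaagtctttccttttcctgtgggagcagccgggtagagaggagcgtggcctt
Rpl24: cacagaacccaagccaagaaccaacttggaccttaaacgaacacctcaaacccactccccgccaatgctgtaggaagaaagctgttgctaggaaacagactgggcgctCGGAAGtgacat
The Rpl38 window holds 2 copies end to end, the first base of each 19 and 13 bases before the start, and the other windows hold 1 each. These 4 were picked from near the ends of the range, all hold the motif, and they do not stand for all members. Rpl22l1 (−0.84) and Rpl10a (−0.16) lie nearer the ends than Rpl38 and Rpl4. Both have windows without the motif and are not shown. Over the whole 300-base windows, 3 of 4 matched members among the 5 lowest fold changes and 2 of 4 among the 5 highest held the motif, and Rpl22l1, Rpl5 and Rpl10a did not.

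Genes that work with the members were read from lists by function. Of the ribosomal proteins named outside the rule, Rpl36al had a log2 fold change of −0.77, Fau of −0.66 and Gnb2l1 (Rack1) of −0.33, and none was called. Of 76 mitochondrial ribosomal protein genes, whose products form the separate ribosome of mitochondria, all were negative, 61 had an unadjusted p under 0.05 and none was called, with a median of −0.55. The reads on members per read on these genes came to 0.810 ± 0.0400 (SD, n = 5) in shNT and 0.823 ± 0.0908 (SD, n = 4) in shRNA, a difference smaller than the spread between samples. Of 20 other genes with TOP mRNAs, mostly translation factors, 18 were negative and none was called, with a median of −0.35. Their most abundant genes, Eif4a2 and Eef2, were at −0.35 and −0.17. Of 49 ribosome biogenesis genes, 28 were negative and 21 positive with a median of −0.11, and none was called in either direction. The most abundant were Ncl (nucleolin) at −0.25 and Nop10, a small protein of the H/ACA particles, at −0.84. Of 28 genes that control the synthesis of ribosomal proteins, 11 were negative and 17 positive with a median of 0.11, none called, with Rheb, the activator of mTORC1, at −0.52 and Akt1 at −0.25.

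Markers of other cells in the tissue were summed in each sample. The sums for astrocytes, endothelial cells, oligodendrocytes, DG granule cells and nuclear-retained noncoding RNAs were highest in shRNA 4. Those for pyramidal neurons, oligodendrocyte precursors and microglia were highest in other samples. The 16 markers of PV INs summed to 9759 to 14992 CPM in shNT and 4853 to 11442 CPM in shRNA, 15 of 16 were negative with a median log2 fold change of −0.32, and none was called. shRNA 4 held the lowest PV IN sum of all samples, 4853 CPM, and the other shRNA samples lay between 9242 and 11442 CPM. Pvalb itself was at 997 CPM ± 287 (SD, n = 5) in shNT and 526 CPM ± 163 (SD, n = 4) in shRNA, so the cell type of the label is present in its defining marker. All 16 astrocyte markers were positive, with sums of 1420 to 1944 CPM in shNT and 1861 to 7283 CPM in shRNA, and none was called. Of 12 markers of CA3 and CA2 pyramidal neurons 11 were positive and 1 called higher, with sums of 654 to 1598 and 1713 to 2158 CPM. For DG granule cells 7 of 8 were positive with none called, with sums of 131 to 208 and 199 to 255 CPM. All 12 oligodendrocyte markers were positive with none called, with sums of 806 to 2449 and 1516 to 3112 CPM. Of 8 markers of oligodendrocyte precursors 7 were positive and 4 called higher, with sums of 73.7 to 110 and 119 to 157 CPM. Of all 15069 genes tested, 262 were called higher. Of 12 microglia markers 7 were positive, with sums of 94.4 to 188 and 140 to 159 CPM, and of 12 endothelial markers 11, with sums of 221 to 554 and 152 to 1494 CPM, none called in either list. All 7 nuclear-retained noncoding RNAs were positive and none called, with sums of 1671 to 15039 and 3642 to 19004 CPM. No tested marker was at 0 in any sample, and the part of these markers in the members' levels was not tested. When the fraction of non-exonic reads entered the fit as a covariate, the median of the members was −0.43, and 15 members had an unadjusted p under 0.05.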

How the data were processed

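RNA immunoprecipitated with HA-tagged ribosomes was sequenced in 9 samples. The authors mapped 50-base reads to the mm9 transcriptome with STAR, counted them per gene without strand in HTSeq 0.6.0 and deposited the counts without normalization. The annotation release is not given in the sources used here. GENCODE M1 of the same build named 37205 of 37620 identifiers and gave lengths and coding lengths. The members and lists were chosen with earlier results of these data known.

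The tools were R 4.3.3, edgeR 4.0.16, DESeq2 1.42.0 and limma 3.58.1. A gene was kept if any sample reached 1 CPM, the study's threshold, whose sign is lost in its text. After TMM scaling, group was the only term in the quasi-likelihood test of edgeR. Genes were called at a Benjamini-Hochberg FDR under 0.05 over 15069 genes and a 1.5-fold change. Levels are CPM after TMM scaling, and a prior count of 2 was added before taking log2. The common biological coefficient of variation was 0.303. The scripts were tested on simulated data. Single values were compared by exact permutation, with 0.5 added to counts in ratios. Labels do not say that samples came from separate cohorts beyond the pools, so p-values measure the spread between these pools. Sample numbers did not pair the groups (correlations of deviations from −0.64 to 0.49).

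Members were named by fixed rules: Rpl22 and Rpl22l1, the stalk proteins and Rpsa, paralogs with their namesakes, members with well-known roles, the 5 lowest and 5 highest fold changes at 10 CPM or more, and the 5 highest and 5 lowest levels per kb. Some genes that these rules name are not reported here. Windows of 50 bases were matched exactly to the genome on both strands, leaving out windows with under 8 bases on one side of an exon junction. Promoters came from RefSeq (GRCm38.p6) and no coordinates of the builds were mixed. Other normalizations, tests, filters, covariates, blocks and sample sets were tried, as given at the end.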

Additional observations from a re-analysis of the deposited data

How the results depend on the processing

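The median log2 fold change of the members was negative under every alternative run, but its size varied. It ran from −0.69 to −0.39 with 1 sample left out and was −0.33 without shNT replicate 2 and shRNA replicate 4 together. In the YTa31 set alone it was −0.27, and 1 member had an unadjusted p under 0.05 in edgeR's quasi-likelihood test, against 50 in the main fit. All these shifts were smaller than the spread of the members' level within groups (0.372 log2 units). That spread includes the low shRNA replicate 4 and is wide beside the main median of −0.55, so it does not show that the median is stable. The number called lower was 0 under the other alternatives but 27 with DESeq2, 14 with edgeR's likelihood ratio test, 14 with its exact test, 5 with limma voom with quality weights and 0 to 4 with 1 sample left out, where the 4 came without shNT replicate 1. The shares of all genes called lower were 5.6%, 3.6%, 3.54%, 4.1% and, without shNT replicate 1, 2.72%. No setting called a member higher. With a replicate block 0 members were called, the median was −0.50, Rpl22 was at −0.32 and the Rpl22 to Rpl22l1 log2 ratio differed by 0.43. The sample numbers do not pair the groups. Under the block 6 members were lower at an unadjusted p under 0.05 in edgeR's quasi-likelihood test, against 50 in the main fit. Over all genes the block gave 0 called lower and 29 higher, against 2 and 262 in the main fit. Rpl22 ran from −0.51 to −0.06 and was never called. The Rpl22 to Rpl22l1 difference ran from 0.41 to 0.68 with 1 sample left out, past the threshold (exact permutation p = 0.036) only without shRNA replicate 2.

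Rpl24 changed sign to −0.025 with DESeq2 and with its size factors in edgeR, −0.020 without a filter, −0.011 with the name set as a term, −0.27 and −0.17 after correction for exon or gene length, and −0.074 to 0.12 with 1 sample left out. Rpl10a turned to 0.021 after the gene length correction, Rpl4 to 0.025 in the YTa31 set alone and 0.056 after the exon length correction, and Rps27 to 0.13 after the latter. The cause of these shifts was not tested. The 4 alternatives added after seeing the data (only members with few shared windows, with little exon overlap, of the large subunit or of the small subunit) gave medians from −0.56 to −0.51. Depth limits only Rpl3l, at about 1 CPM or less.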
